A study of Drosophila melanogaster with 2 samples.

Results

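3RHet is the part of the Release 5 Drosophila melanogaster genome that gathers sequence assigned to the pericentric heterochromatin of the right arm of chromosome 3 and not joined to the assembled arm. It was taken as the 300-bp bins, counted from its first base, that held at least 1 H3K9me2 tag in either library. These were 6025 of its 8393 bins, out of 405715 bins with a tag among 432016 bins on all arms and heterochromatic scaffolds. H3K9me2, the dimethylated form of lysine 9 of histone H3, was profiled by ChIP-seq in larvae of the third instar, of 2 genotypes. EHMTDD1 larvae, labelled EHMT-KO, carry a deletion downstream of the P-element KG01242 that removes the translational start of EHMT, the fly G9a-type histone methyltransferase. EHMT+ larvae, labelled wild type, come from a precise excision of the same P-element and share the genetic background of the deletion line. Both strains were reared at 25 degrees on standard medium, and neither received a treatment. Each genotype is represented by 1 line and 1 library, and chromatin came from whole larvae, so cell types were mixed. Tags at the EHMT locus itself were not examined to check the labels. Differences between the genotypes have no replicate check here, and p-values were not computed.

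Pericentric heterochromatin is dense in repeats and transposon remnants, is packaged with heterochromatin protein 1 and carries H3K9me2 and H3K9me3 over long stretches. In flies Su(var)3-9 is the main methyltransferase of this compartment, SETDB1 (Eggless) acts at chromosome 4 and transposons, and EHMT (G9a) is known for its action on euchromatin. The arm assemblies run into heterochromatin at their centromeric ends, so the beginning of 3R is the nearest assembled neighbour of 3RHet. The comparison asks whether 3RHet carries H3K9me2 as that end does, and whether its profile is alike in both genotypes.

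The authors equalized the libraries, so each held 7043913 tags of 300 bp, and no 2 tags of a library shared a start and a strand. Of these, 132852 tags (1.89%) of EHMTDD1 and 123156 tags (1.75%) of EHMT+ lay on 3RHet, with 49.8% on the plus strand in each. No input library was used here, so the number of copies of a sequence, its unique mapping and its H3K9me2 were not separated. Intervals below are at the 95% level, and for tag counts and ratios of them they cover only counting error.

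Much of 3RHet held no tag at all. Its 2368 bins without a tag in either library made up 28.2% of the scaffold, against 8.60% of the centromeric 300 kb of 3R and 2.55% of euchromatic 3R (3R without 1 Mb at its centromeric end). They formed 259 separate stretches, of which 70 were single bins. The longest ran over 73500 bp, at 3RHet:449101-522600. The next were 3RHet:316801-367500, 3RHet:2383801-2431200, 3RHet:2229601-2259900 and 3RHet:984301-1013100. These 5 stretches together held 32.5% of the sequence without tags. Only uniquely mapping reads were kept, and assembly gaps were not told apart from repeated sequence here, so these stretches say nothing about H3K9me2. Densities below are therefore given per kb of bins with a tag.

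By this mean 3RHet stood above the euchromatic part of its arm in both genotypes, but that order depended on the measure. It had 73.5 tags per kb in EHMTDD1 and 68.1 tags per kb in EHMT+, whereas euchromatic 3R had 51.9 tags per kb in EHMTDD1 and 50.5 tags per kb in EHMT+. The ratio of 3RHet to euchromatic 3R was 1.42 (interval 1.41 to 1.42) in EHMTDD1 and 1.35 (1.34 to 1.36) in EHMT+. By the median bin with a tag EHMTDD1 was the lower on 3RHet, with 26 tags against 29 tags on euchromatic 3R, and EHMT+ the higher, with 37 tags against 28 tags. Over all bins, those without a tag included, the ratio was 1.04 in EHMTDD1 and 0.994 in EHMT+. The centromeric 300 kb of 3R was denser still, with 76.8 tags per kb in EHMTDD1 and 91.3 tags per kb in EHMT+. The scaffold thus had 0.957 times the density of that end in EHMTDD1 (0.944 to 0.971) and 0.747 times in EHMT+ (0.737 to 0.757). The order of the pair in EHMTDD1 depended on the length taken from 3R, since against 1 Mb the scaffold was the denser, by 1.21 times.

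The libraries also stood differently to each other in these neighbouring regions. On 3RHet the ratio of EHMT+ to EHMTDD1 tags was 0.927 (0.920 to 0.934), so that the mutant library had the larger total. On the centromeric 300 kb of 3R it was 1.19 (1.17 to 1.21), with 21052 tags in EHMTDD1 and 25023 tags in EHMT+. On euchromatic 3R it was 0.974 (0.972 to 0.976). The ratio on 3RHet was 0.780 times that on the 3R end (0.765 to 0.796) and 0.952 times that on euchromatic 3R (0.944 to 0.960). Both differences were larger than counting error, and 3RHet stood nearer to euchromatic 3R than to the 3R end. With 1 library per genotype, the spread between larvae that could underlie these differences was not measured.

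Along its length the scaffold was divided into 42 blocks of 60 kb, numbered from the first base, each with 28 to 200 bins with a tag. Block densities ranged from 28.7 to 120.3 tags per kb in EHMTDD1, with a median of 72.3, and from 29.3 to 114 tags per kb in EHMT+, with a median of 60.7. In EHMTDD1 32 blocks and in EHMT+ 34 blocks were denser than euchromatic 3R in the same library, as were 52.2% of 1899 euchromatic windows of the same size in EHMTDD1 and 56.5% in EHMT+. Dense and sparse blocks were largely the same in both genotypes. Across the 42 blocks Pearson r between the densities was 0.81 and Spearman rho was 0.76, which describes blocks that share their sequence and mapping and are not replicates. Over the 1899 euchromatic windows r was 0.87 and rho 0.82, so the likeness was no closer on 3RHet.

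**Figure D1:**
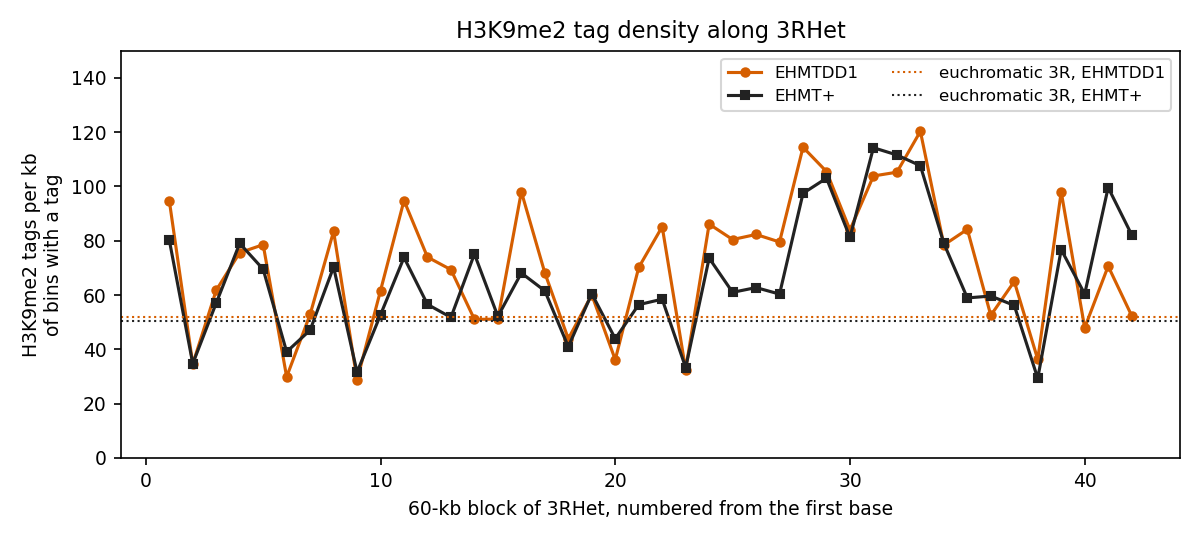
H3K9me2 tags per kb of bins with a tag (vertical axis) in each 60-kb block of 3RHet (horizontal axis), for EHMTDD1 and EHMT+, with the density of euchromatic 3R in each library as a dotted line. Blocks 28 to 34 carry the broadest stretch of high density in both libraries, and blocks 2, 6, 9, 23 and 38 lie lowest in EHMT+.

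The densest stretch lay in blocks 28 to 34, at 3RHet:1620001-2040000, which were grouped after their values were seen. It had 101 tags per kb in EHMTDD1 and 99.4 tags per kb in EHMT+, and held 25.6% and 27.1% of the scaffold's tags in these libraries. Within it, block 31 had the highest EHMT+ density of the scaffold, with 104 tags per kb in EHMTDD1 and 114 tags per kb in EHMT+. Blocks 32, 33 and 29 followed in EHMT+, with 105, 120.3 and 105 tags per kb in EHMTDD1 and 112, 108 and 103 tags per kb in EHMT+. These levels lay near those of the first 60 kb of assembled 3R, which had 104 tags per kb in EHMTDD1 and 121 tags per kb in EHMT+. Block 41 was the only one of the 5 densest blocks of EHMT+ outside this stretch, with 70.6 tags per kb in EHMTDD1 and 99.6 tags per kb in EHMT+.

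At the other end of the range, the 5 sparsest blocks of EHMT+ lay below euchromatic 3R in both libraries. Block 38 had 36.3 tags per kb in EHMTDD1 and 29.3 in EHMT+. Block 9 had 28.7 tags per kb in EHMTDD1 and 31.5 in EHMT+, block 23 had 32.5 and 33.3, block 2 had 34.6 and 34.7, and block 6 had 29.8 and 39.1 in the same order. Blocks 6, 9 and 38 hold parts of 3 of the 5 longest stretches without tags, whereas block 2 had a tag in 185 of its 200 bins. Low density was therefore not limited to blocks with little mapped sequence.

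The ratio of the libraries varied from block to block more than it did in euchromatin. Its log2 value, EHMT+ over EHMTDD1 (positive where the mutant had fewer tags), ranged from −0.54 to 0.65 over the 42 blocks with a median of −0.15. Its SD of 0.30 compared with 0.17 over 1899 windows of the same size on the 5 euchromatic arms, most of which had more bins with a tag. In 2 blocks the value exceeded 0.5 and in 3 it was below −0.5, while 0.685% and 0.0527% of euchromatic windows were beyond these limits. The interval of the ratio lay wholly above 1 in 10 blocks and wholly below 1 in 23 blocks. In euchromatic windows this was so for 29.5% and 34.2%, so an interval that leaves out 1 was common throughout the genome. The share of blocks with an interval wholly below 1, 54.8%, was above its background, and that wholly above 1, 23.8%, was not.

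**Figure D2:**
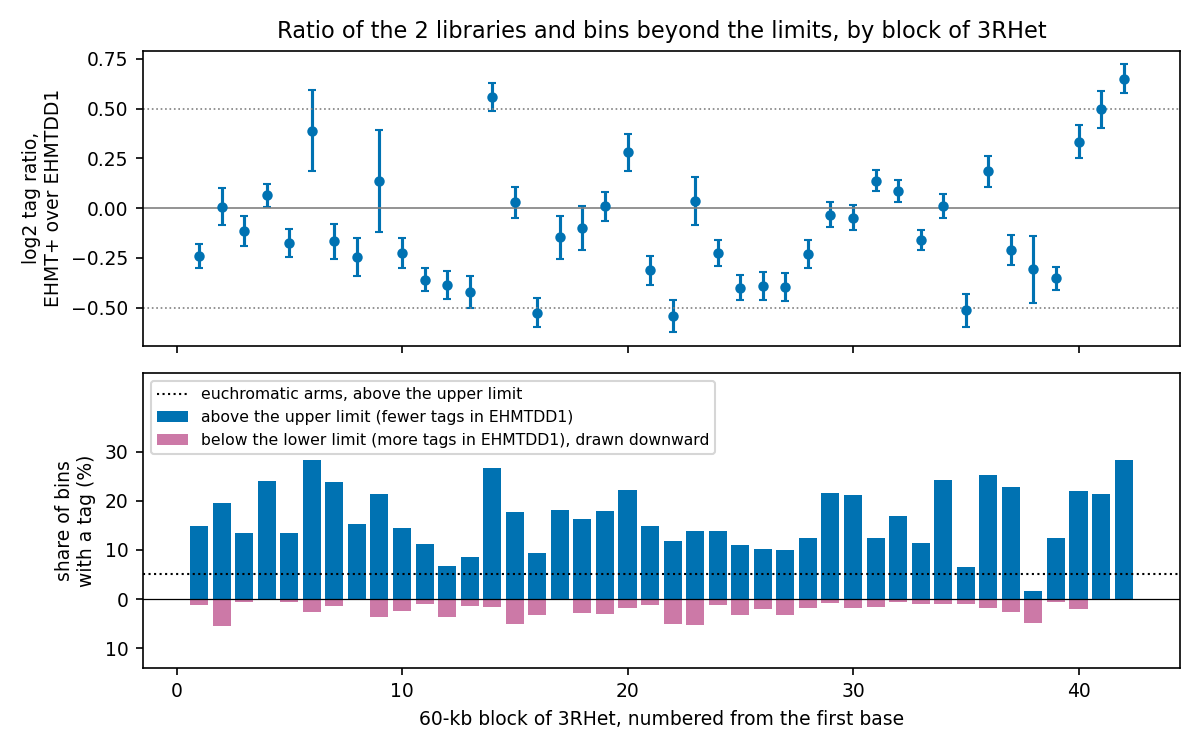
Top, log2 ratio of tags, EHMT+ over EHMTDD1, in each 60-kb block of 3RHet with its 95% counting interval; dotted lines mark 0.5 and −0.5. Bottom, share of bins with a tag above the upper limit (drawn upward) and below the lower limit (drawn downward) in the same blocks. Block 42 lies highest and block 22 lowest, and the upward bars exceed the euchromatic share in 41 of 42 blocks, as in 39.1% of euchromatic windows.

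Fewer tags in the mutant were most marked at the far end of the scaffold. Block 42, at 3RHet:2460001-2517757, had 2453 tags in EHMTDD1 and 3848 tags in EHMT+, a ratio of 1.57 (1.49 to 1.65). Together with blocks 40 and 41, grouped after their values were seen, it had 54.3 tags per kb in EHMTDD1 and 77.3 tags per kb in EHMT+, a ratio of 1.42 (1.38 to 1.47). The other block beyond 0.5 was block 14, at 3RHet:780001-840000, with 2816 tags in EHMTDD1 and 4146 tags in EHMT+, a ratio of 1.47 (1.40 to 1.55). Block 6 was next in order of the ratio after block 41, at 1.31 (1.14 to 1.51), with 349 tags in EHMTDD1 and 457 tags in EHMT+. In the 5 blocks of the centromeric 300 kb of 3R the log2 ratios ran from 0.03 to 0.47.

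More tags in the mutant extended over longer parts of the scaffold. The lowest ratio was that of block 22, at 3RHet:1260001-1320000, with 3040 tags in EHMTDD1 and 2087 tags in EHMT+, a ratio of 0.687 (0.649 to 0.726). Block 16, at 3RHet:900001-960000, had 3735 tags in EHMTDD1 and 2595 tags in EHMT+, a ratio of 0.695 (0.661 to 0.731). Block 35, at 3RHet:2040001-2100000, had 2728 tags in EHMTDD1 and 1909 tags in EHMT+, a ratio of 0.700 (0.660 to 0.742). Blocks 10 to 13 (3RHet:540001-780000) and blocks 24 to 27 (3RHet:1380001-1620000), also grouped after their values were seen, each had a ratio of 0.784. Their densities were 76.2 and 82.0 tags per kb in EHMTDD1, against 59.7 and 64.3 tags per kb in EHMT+. Block 1, the first of the scaffold, had 5005 tags in EHMTDD1 and 4238 tags in EHMT+, a ratio of 0.847 (0.813 to 0.882). The density of a block in EHMT+ said little about its ratio, with a Spearman rho of 0.11 over the 42 blocks as a description.

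Block totals hid a much wider spread between single bins. A tag was counted here in every bin it overlapped. The 5th, 25th, 50th, 75th and 95th percentiles of the 6025 bins were 0, 7, 26, 69 and 142 tags in EHMTDD1, and 2, 13, 37, 62 and 94 tags in EHMT+. The mutant profile was thus lower at the low end and higher at the high end, and its SD was 47.9 tags, against 32.1 tags in EHMT+. On the centromeric 300 kb of 3R EHMTDD1 was the lower at each of these percentiles, with 65 tags against 72 tags in EHMT+ at the 75th and 101 tags against 104 tags at the 95th. The SD there was 33.1 tags in EHMTDD1 and 28.5 tags in EHMT+. Euchromatic 3R crossed as 3RHet did, with 6 tags in EHMTDD1 against 14 tags in EHMT+ at the 5th percentile. At the 95th it had 62 tags against 53 tags, and its SD was 17.8 tags against 12.5 tags. The scaffolds 3LHet and 2RHet crossed too, with 173 against 117 tags and 173 against 111 tags at the 95th. At the 5th both had 0 tags against 2 tags, so the crossing was not particular to 3RHet. The bin counts of the libraries had a Spearman rho of 0.78 on 3RHet, 0.65 on the centromeric 300 kb of 3R and 0.55 on euchromatic 3R, in regions that also differ in the range of their counts.

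The log2 ratio of a bin was taken after adding 1 to both counts. Its median on 3RHet was 0.00 and its SD 1.35, against 1.10 on the centromeric 300 kb of 3R and 0.83 on euchromatic 3R. Within 0.5 of 0 lay 31.3% of the bins of 3RHet, 52.6% of those of the 3R end and 58.2% of those of euchromatic 3R. The scaffolds 3LHet and 2RHet were alike, with an SD of 1.33 and 1.36 and with 31.4% and 30.0% of bins within 0.5. The wide spread was therefore not particular to 3RHet. On 3RHet 37.9% of bins were above 0.5 and 30.8% below −0.5, whereas on the 3R end 37.4% were above and 9.96% below. The median near 0 therefore stood for a mixture of bins on both sides.

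**Figure D3:**
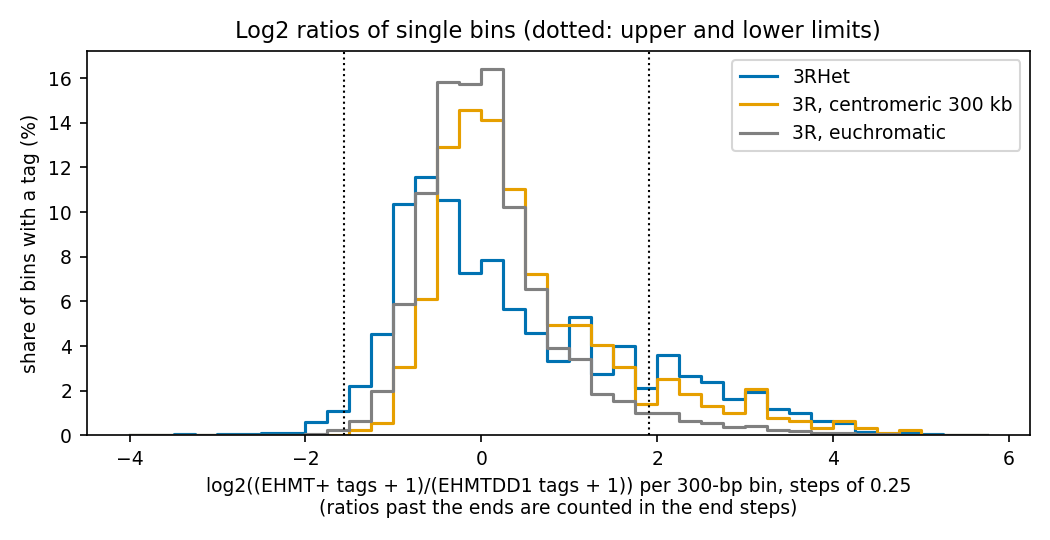
Share of bins with a tag (vertical axis, %) by log2 ratio of EHMT+ to EHMTDD1 tags in steps of 0.25 (horizontal axis), for 3RHet, the centromeric 300 kb of 3R and euchromatic 3R; dotted lines mark the upper and lower limits. Among the regions drawn, 3RHet has the widest curve, with its highest step left of 0 and the largest share of bins right of the upper limit.

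The study defined loss of methylation bins, or LOMBs, as euchromatic bins whose log2 ratio exceeds the mean by 2 SD. Over the euchromatic bins counted here these limits were 1.90 on the upper side, a ratio of 3.74, and −1.56 on the lower side. The paper gives a higher ratio as its cutoff and fewer euchromatic bins beyond its lower limit. The calls here are therefore not those of the study. On 3RHet 989 bins were above the upper limit, or 16.4% (Wilson interval 15.5 to 17.4%), against 5.06% of euchromatic bins with a tag. The centromeric 300 kb of 3R had 112 such bins, or 12.3% (10.3 to 14.5%). Below the lower limit were 118 bins of 3RHet, or 1.96% (1.64 to 2.34%), against 0.243% of euchromatic bins and 0 of the 914 bins of the 3R end, which allows up to 0.419% there by the Wilson interval. Neighbouring bins share tags, so these intervals are too narrow. With limits of 3 SD the shares above were 7.12% on 3RHet and 1.95% on the euchromatic arms, and those below were 0.216% and 0.0248%.

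All 42 blocks held a bin above the upper limit, as did 98.3% of the euchromatic windows, so their presence in a block sets the scaffold little apart. Their share per block ran from 1.64% in block 38 to 28.2% in blocks 6 and 42, and it exceeded the 5.06% of euchromatin in 41 blocks, as it did in 39.1% of the euchromatic windows. Block 14 had 49 such bins, the highest number. Blocks with a balanced total held many of them too. In block 4 the totals were 4535 tags in EHMTDD1 and 4741 tags in EHMT+, and 48 of its 200 bins were above the limit. The bins below the lower limit lay in 37 blocks, with at most 10 in a block. No such bin was found in 5 blocks of 3RHet, against 1362 of the 1899 euchromatic windows. The most in a euchromatic window was 13.

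In the bins above the limit the median was 3 tags in EHMTDD1 and 29 tags in EHMT+. In the other bins of 3RHet it was 37 tags in EHMTDD1 and 38 tags in EHMT+. EHMTDD1 had no tag in 278 of the 989 bins, and EHMT+ had fewer than 10 tags in 237 of them. On euchromatic 3R these numbers were 346 and 135 of 3619 bins above the limit, and on the 3R end 9 and 4 of 112. Bins with few or no tags thus made up more of the calls on 3RHet than in either region. These bins held 1.39% of the EHMTDD1 tags of the scaffold and 13.4% of the EHMT+ tags. Over the remaining 5036 bins EHMTDD1 had 131006 tags and EHMT+ had 106695 tags, a ratio of 0.814 (0.808 to 0.821). This value was obtained by leaving out bins for their ratio, and the equalized totals tie a deficit in some bins to a surplus in others, so it is a description only.

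The number of tags in a bin moved with its ratio. Among the 984 bins with 160 or more tags in both libraries together, the median was 124 tags in EHMTDD1 and 81 tags in EHMT+, and the median log2 ratio was −0.65. Among the 1624 bins with 80 to 159 tags it was −0.13, and among the 1315 bins with 40 to 79 tags it was 0.56. It was 0.38 among the 788 bins with 20 to 39 tags and 0.58 among the 507 bins with 10 to 19 tags. In the 807 bins with 1 to 9 tags it was 1.00, with medians of 0 tags in EHMTDD1 and 3 tags in EHMT+. On the 3R end the medians of the 3 densest classes fell in the same order over a smaller span, from 0.43 in bins with 40 to 79 tags through 0.07 to −0.03 in bins with 160 or more. On euchromatic 3R they were −0.06, −0.25 and −0.47 in these classes. In each sparser class the median of the 3R end was above that of 3RHet. It was 2.32 in its 19 bins with 10 to 19 tags and 1.58 in its 10 bins with 1 to 9 tags. The highest median of euchromatic 3R was 1.49, in bins with 10 to 19 tags. Taken over all classes, the medians thus spanned a wider range in both regions than on 3RHet.

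These classes hold the EHMTDD1 count, which moves a bin with few EHMTDD1 tags to a lower class, so they do not match bins between regions. Bins were therefore also set side by side by their EHMT+ tags alone, a count that is itself part of the ratio. In bins with 40 to 79 EHMT+ tags the share above the upper limit was 15.3% on 3RHet (13.8 to 16.9%), 11.8% on the 3R end (9.04 to 15.2%) and 4.20% on the euchromatic arms (4.06 to 4.35%). In bins with 20 to 39 EHMT+ tags it was 18.2% on 3RHet (16.1 to 20.4%), 13.8% on the 3R end (10.2 to 18.4%) and 4.60% on the arms (4.52 to 4.69%). The intervals of 3RHet and the 3R end overlap in both classes, and those of 3RHet and the arms do not. In bins with 80 to 159 EHMT+ tags the share was 7.42% on 3RHet (5.67 to 9.65%), against 5.88% on the arms (5.28 to 6.54%), with intervals that overlap. Of 17 bins of 3RHet with 160 or more EHMT+ tags 0 were above the limit.

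**Figure D4:**
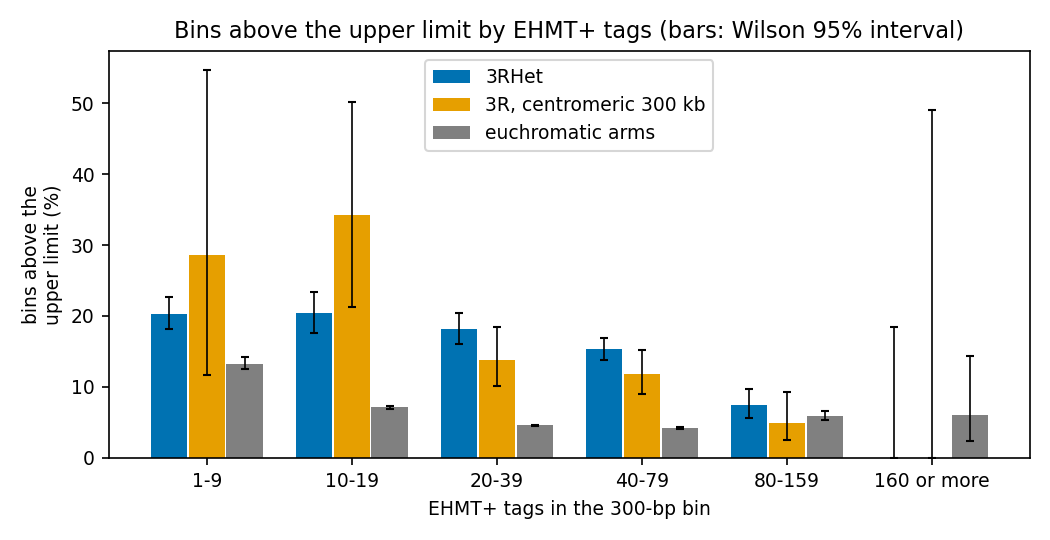
Share of bins above the upper limit (vertical axis, %) by the number of EHMT+ tags in the bin (horizontal axis), for 3RHet, the centromeric 300 kb of 3R and the euchromatic arms, with Wilson 95% intervals as error bars. 3RHet lies above the euchromatic arms from 1 up to 79 tags, with 15.3% against 4.20% at 40 to 79 tags, and its interval overlaps theirs from 80 tags upward.

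Consecutive bins above the limit formed 454 runs on 3RHet, with a mean of 2.18 bins. Of these runs 204 (44.9%) were single bins, against 65.5% of the runs of euchromatic 3R, and 66 had 4 or more bins. Runs of 4 or more bins held 36.4% of the bins above the limit on 3RHet, 27.7% on the 3R end and 19.2% on euchromatic 3R. The longest run had 14 bins, at 3RHet:1400701-1404900, with 50 tags in EHMTDD1 and 296 tags in EHMT+, a ratio of 5.92 (4.38 to 8.16). In the 3 kb on each side of it EHMTDD1 had 605 tags and EHMT+ had 571 tags. The other long runs had 10 or 9 bins. At 3RHet:654901-657900 there were 25 tags in EHMTDD1 and 222 tags in EHMT+, and at 3RHet:2113801-2116800 there were 12 and 93 in the same order. The run at 3RHet:843001-846000 had 3 tags in EHMTDD1 and 93 tags in EHMT+, and that at 3RHet:802501-805200 had 20 tags in EHMTDD1 and 211 tags in EHMT+. Tags from the 3 kb on each side stood at a ratio of 0.89 to 2.20 in these 4 runs, the highest being that of the run at 802501 in block 14. The flanks of the runs at 2113801 and 843001 also had more tags in EHMT+ than in EHMTDD1, at ratios of 1.30 and 1.23. Those of the run at 654901 had fewer.

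Around 65 runs of 4 or more bins, those with 4500 bp of scaffold on each side, the EHMTDD1 median was lowest near the centre. At the centre the median was 4 tags in EHMTDD1 and 45 tags in EHMT+. At 1200 bp it was 16.5 and 19 tags on the left and right side in EHMTDD1, and 40.5 and 40 tags in EHMT+. At 2700 bp it was 20.5 and 37 tags in EHMTDD1, and 45 and 49 tags in EHMT+. At 4500 bp it was 34.5 and 17.5 tags in EHMTDD1, and 47 and 35.5 tags in EHMT+. The EHMTDD1 median lay below that of EHMT+ at every distance out to 4500 bp. The runs were picked by the ratio, so the difference at the centre is given by their choice. The EHMT+ median stayed between 33 and 49 tags from 4500 bp before to 4500 bp after the centre, with no dip at the run, although the choice of bins with more EHMT+ than EHMTDD1 tags bears on the central values.

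**Figure D5:**
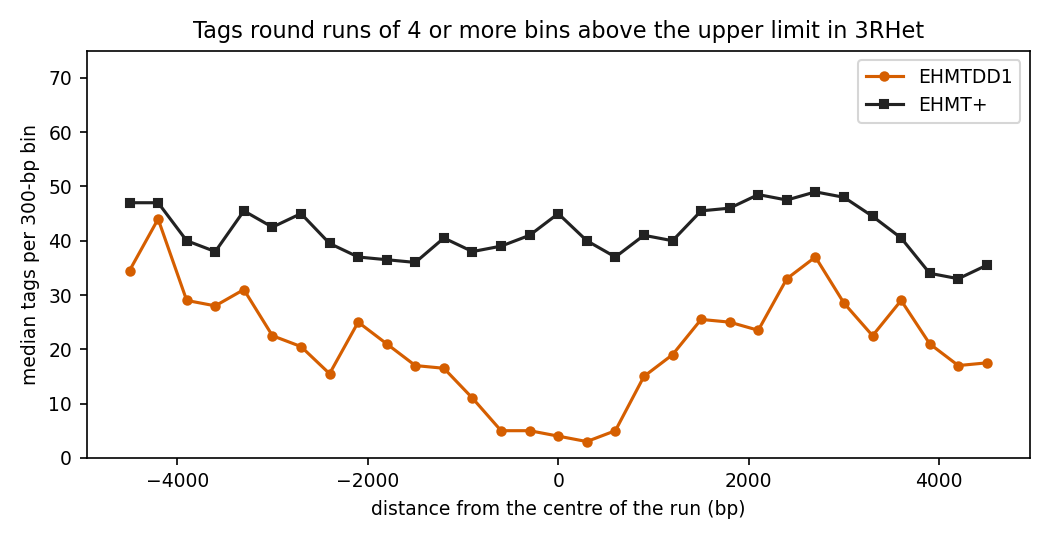
Median tags per 300-bp bin (vertical axis) by distance from the centre of the run (horizontal axis, bp) over 65 runs of 4 or more bins above the upper limit, for EHMTDD1 and EHMT+. EHMTDD1 has 3 to 5 tags from −600 to 600 bp and more on both sides, while EHMT+ stays between 33 and 49 tags.

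Runs below the lower limit were short and thin in comparison. There were 92, of which 73 were single bins, and the longest had 4 bins, at 3RHet:897001-898200, with 27 tags in EHMTDD1 and 6 tags in EHMT+, 4.50 times as many in EHMTDD1 (1.82 to 13.3). Runs of 3 bins had 30 and 5 tags at 3RHet:1581301-1582200, 20 and 3 at 3RHet:1125601-1126500, 13 and 2 at 3RHet:1495801-1496700, and 6 and 0 at 3RHet:1330801-1331700, with EHMTDD1 before EHMT+. In the bins below the limit the median was 9 tags in EHMTDD1 and 2 tags in EHMT+, so these calls rest on few tags. In 103 of the 118 bins EHMT+ had fewer than 10 tags.

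The 36-bp reads without extension gave the same asymmetry. On 3RHet there were 176 stretches of at least 300 bp that no EHMTDD1 read touched and that held at least 12 EHMT+ reads, and 0 stretches with the libraries exchanged. Their median length was 494 bp, but 37 had 1 kb or more and the longest 84556 bp, against 1 of at least 1 kb among 26 on the centromeric 300 kb of 3R. On 3RHet 22 of them took in a bin without a tag in either library, so their lengths partly count sequence that neither library covered. Stretches wholly in bins with a tag numbered 154, which per Mb of such bins was 85.2 on 3RHet, against 91.2 on the 3R end and 63.6 on euchromatic 3R. The reverse kind numbered 11 on euchromatic 3R. The 176 stretches of 3RHet lay in 38 of the 42 blocks. Such stretches lay in all 5 blocks of the 3R end. On euchromatic 3R, with 448 complete windows of 60 kb, they lay in 418, so their presence in a block sets 3RHet little apart. The one with most EHMT+ reads was 3RHet:656514-657413, where EHMTDD1 had 0 reads and EHMT+ had 74 reads over 900 bp. It lies in the run that begins at 654901. The next were 3RHet:789796-790201 and 3RHet:814151-814834, both in block 14, each with 0 reads in EHMTDD1 and 48 reads in EHMT+. Whether these sequences lost H3K9me2 in the mutant, were recovered unevenly in its library or differ between the strains cannot be told apart with 1 library per genotype.

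Against the other large scaffolds, 3RHet was compared in density, tag ratio, spread of bin ratios and shares of bins beyond the limits or without a tag. Runs and stretches without reads were not counted on them. 3LHet and 2RHet, of similar size, had 83.3 and 85.9 tags per kb in EHMTDD1 and 78.2 and 76.6 tags per kb in EHMT+. The density of 3RHet was 0.883 times that of 3LHet in EHMTDD1 (0.876 to 0.889) and 0.871 times in EHMT+ (0.865 to 0.878). Against 2RHet it was 0.856 times in EHMTDD1 (0.850 to 0.862) and 0.890 times in EHMT+ (0.883 to 0.896), so 3RHet was the less dense beyond counting error in all 4 comparisons. The ratio of EHMT+ to EHMTDD1 tags was 0.927 on 3RHet, 0.939 on 3LHet (0.932 to 0.946) and 0.892 on 2RHet (0.886 to 0.898). The interval of 3RHet overlaps that of 3LHet and lies above that of 2RHet. Bins above the upper limit made up 16.7% on 3LHet and 15.3% on 2RHet, and the Wilson intervals of all 3 scaffolds overlap. Bins below the lower limit made up 1.65% on 3LHet (1.36 to 1.99%) and 2.54% on 2RHet (2.19 to 2.95%). The Wilson interval of 3RHet, 1.64 to 2.34%, overlaps both. Bins without a tag in either library made up 25.97% of 3LHet and 39.3% of 2RHet, against 28.2% of 3RHet. Shares above those of 3R in these 2 measures were therefore not particular to 3RHet.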

How the data were processed

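Per the labels and the methods, H3K9me2 ChIP DNA of larvae of the third instar was sequenced as 36-bp single reads. The authors aligned these to BDGP5 (dm3) with 1 mismatch allowed, kept uniquely aligned tags, extended them to 300 bp and equalized both libraries. The deposited values are tag positions and strands, from which tags were counted in 300-bp bins. Which tags were dropped at equalization and the length of extension affect bin counts. Bins received every tag that touched them, whereas a tag counted once, by its midpoint, in totals, densities, blocks and runs. Log2 ratios used a pseudocount of 1. Limits were the mean plus and minus 2 SD over 384457 bins, from chromosome 4 and from the 5 arms less their centromeric 1 Mb. Blocks needed 20 bins with a tag. Ratio intervals are exact conditional binomial, and share intervals Wilson. Counting was tested on simulated data.

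The scaffold, the limits and the regions named (by rule, the 5 blocks highest and lowest in EHMT+ density and in ratio, the 5 longest runs and stretches, and the first and last blocks) were chosen with earlier results of these data known. For stretches without reads, those with most reads were named. Groups of adjacent blocks and block 4 were picked after their values were seen. Genes and sequences of 3RHet were not analysed here, because no Release 5 genome or annotation was used. Counts and intervals were computed in Python 3.11.15 with pandas 2.3.3, SciPy 1.17.1 and NumPy 2.4.6, and drawn with Matplotlib 3.10.9.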

Additional observations from a re-analysis of the deposited data

How the results depend on the processing

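No paired analysis was possible because there was only 1 library of each genotype, and for the same reason no library could be left out. Over 10 alternatives the share of 3RHet bins above the upper limit was 2.11 to 4.16 times that of the euchromatic arms, and the share below the lower limit 2.55 to 9.15 times. The share above, 16.4%, was 17.6% with a pseudocount of 0.5, 13.6% with bins with tags in both libraries, 14.1% with at least 20 tags in both together, 11.9% by midpoint, 13.6% with 36-bp reads, 18.5% with 600-bp bins, 7.12% with 3 SD and 18.0% with limits from euchromatic 3R. The share below, 1.96%, was 1.49% with tags in both libraries, 0.722% with at least 20 tags, 1.05% by midpoint, 0.814% with 36-bp reads and 0.216% with 3 SD. The median log2 ratio, 0.00, was −0.091 when both libraries had to hold a tag and −0.14 at a minimum of 20 tags. The tag ratio of EHMT+ to EHMTDD1 was 0.914 on 3RHet with bins of at least 20 tags, and 1.15 on the first 100 kb of 3R. The density of 3RHet relative to the 3R end, 0.957 in EHMTDD1, was 0.770 with 100 kb, 1.21 with 1 Mb, 0.752 over all bins and 0.650 by median tags. In EHMT+, at 0.747, it was 0.619 with 100 kb, 0.938 with 1 Mb and 0.586 over all bins. Against euchromatic 3R, by alternatives chosen after seeing the data, the density of 3RHet in EHMTDD1, 1.42 times, was 1.04 over all bins and 0.897 by median tags; in EHMT+, at 1.35, it was 0.994 and 1.32, so the order turned in each library under 1 of them. Blocks above 0.5 numbered 2, and were 6 with 30-kb blocks, 1 with 120-kb blocks and 9 by the median of bins. Blocks below −0.5 numbered 3, and were 5, 0 and 1 in this order. The 176 stretches without EHMTDD1 reads were 94 with at least 20 reads and 66 with at least 600 bp. Larger bins and blocks, and stricter minimums, leave fewer to count; otherwise the cause was not tested. Scaling to equal tags on the euchromatic arms shifted log2 ratios by 0.0047 and added 1 block above 0.5. Bins with few tags limit what a single bin can show.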

Other observations

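The ratio of the libraries on 3RHet varied mainly over short distances. Counted by midpoint, the SD of the log2 ratio was 1.41 in 300-bp bins, 1.02 in windows of 3000 bp, 0.74 in windows of 9900 bp and 0.32 in windows of 30000 bp, against 1.05, 0.41, 0.26 and 0.18 on euchromatic 3R. Ratios of bins 600 bp apart had a Pearson r of 0.41 on 3RHet (5575 pairs) and 0.20 on euchromatic 3R (86978 pairs). At 3000 bp r was 0.10 and 0.07, and at 30000 bp it was 0.02 and 0.03. These values describe bins and windows of the same libraries, which are not replicates, with no test.

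When 3RHet was cut at stretches of at least 3 kb without a tag, it fell into 52 islands, the longest of 178500 bp at 3RHet:1867801-2046300. Over the 36 islands of at least 6 kb the ratio of EHMT+ to EHMTDD1 tags ran from 0.527 to 1.57 with a median of 0.896. Islands of other regions were not counted. The division into islands was chosen after the data were seen.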
